A study of Mus musculus with 6 samples.

Results

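A set of 10 genes known as pericentral or Wnt-responsive in the liver was examined: Glul, Oat, Slc1a2, Rgn, Lhpp, Axin2, Rnf43, Znrf3, Lgr5 and Tbx3. They were chosen by name with earlier results of these data known. Each symbol matched 1 of the 45706 rows of a gene count table of mouse liver RNA. All 10 members passed the low-count filter, which left 14069 genes for testing. The table holds 3 wild-type libraries (WT 1, WT 2 and WT 3) and 3 libraries labelled as knockout of Entpd8 (KO 1, KO 2 and KO 3), the gene of the ectonucleotidase NTPDase8. The study addresses this enzyme in liver ischemia. The labels give liver as the tissue and a specific pathogen-free facility for all mice. They give no treatment, ischemia, sex, age, strain, kind of knockout allele or cell type of deletion, and do not state whether libraries of 1 genotype are different animals. P-values therefore measure the spread between these samples, which may be technical.

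Hepatocytes along the liver lobule carry out different tasks depending on their distance from the central vein. Endothelial cells at and near that vein release Wnt2, Wnt9b and the Wnt enhancer Rspo3, which stabilise beta-catenin in the nearest hepatocytes, where it acts with Tcf/Lef factors on DNA. These pericentral hepatocytes express Glul and Oat for glutamine synthesis and ornithine use, while Axin2, Rnf43, Znrf3 and Lgr5 belong to the Wnt pathway that induces them.

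Total counts ran from 32768774 to 46473531 per library. Entpd8 was at 22.4 to 56.5 CPM (the count as a share of the library total, scaled by the TMM method to one common total) in wild-type and at 0.382 to 1.09 CPM in knockout libraries, so the targeted transcript followed the labels. WT 2 lay apart from WT 1 and WT 3 on the second principal component (16.6% of the variance). All libraries had Xist at 0.154 CPM or less and the Y-linked gene Ddx3y at 80.0 CPM or more. Of 4 tested sex-linked genes 0 were called higher and 2 lower. These were the Y-linked Uty (log2 fold change -0.69, adjusted p = 0.016, edgeR) and Kdm5d (-0.67, adjusted p = 0.0212, edgeR). Uty did not pass without KO 1, nor Kdm5d without WT 1, WT 3, KO 1 or KO 2. Mitochondrially encoded transcripts made up 6.52% to 8.34% of the wild-type and 10.1% to 11.7% of the knockout libraries. Hepatocyte markers summed to 88139 to 118876 CPM in wild type and 85298 to 107803 CPM in knockout, with 0 of 9 called higher and 1 lower (Fgb). Most of these sums is Alb (34244 to 49635 against 42745 to 53964 CPM) and Trf (14012 to 25772 against 12661 to 13808 CPM). Their log2 fold changes had opposite signs, 0.32 for Alb and -0.47 for Trf, and did not pass (adjusted p = 0.323 and 0.21, edgeR). Of 10 Kupffer cell markers 6 were called lower, summing to 140 to 311 CPM in wild type and 70.9 to 99.6 CPM in knockout. Of 8 tested cholangiocyte markers 2 were called higher (Krt19 and Epcam), with sums of 92.9 to 122 against 134 to 323 CPM. These sums are mostly Spp1 (62.9 to 73.1 against 80.8 to 254 CPM), which did not pass (adjusted p = 0.0519, edgeR). Of 11 stellate markers 1 was called lower (Col1a1), with sums of 252 to 362 against 161 to 353 CPM. Of 6 tested plasma cell markers 3 were called higher: Igha from 0.271 ± 0.0377 to 22.2 ± 6.07 CPM, Igkc from 0.574 ± 0.343 to 10.3 ± 2.16 CPM and Jchain from 0.488 ± 0.138 to 7.76 ± 1.65 CPM (SD, n = 3). The sum of this list (516 to 921 against 817 to 970 CPM) is mostly Xbp1 and Sdc1, which did not pass and whose groups overlapped. Over all genes tested, 9.80% were called higher and 10.6% lower. No marker in these lists was at 0 in all libraries. The part of these shifts in the results that follow was not tested. In whole liver, fewer cells of a type and less RNA per cell cannot be told apart.

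The first comparison asked how the 10 genes differed between the genotypes. Rgn, a calcium-binding protein that also acts as a gluconolactonase, rose about 2-fold in knockout livers, and Tbx3, a T-box transcription factor, fell to 0.438 of its wild-type level. The other 8 genes did not pass, and their log2 fold changes ran from -0.83 (Lgr5) to 0.72 (Rnf43). A gene was called when its adjusted p was under 0.05 in edgeR's quasi-likelihood test, adjusted over all 14069 genes. That made 1 of 10 members higher, against 9.80% of all genes tested, and 1 of 10 lower, against 10.6%. Both shares are near the background, which was 20.4% for calls in either direction. Of the 10 log2 fold changes, 5 were positive and 5 negative, with a median of -0.12 against -0.02 over all genes. The median became 0.06 without WT 3 and -0.20 without KO 3. The median size without sign was 0.49 against 0.34 over all genes. The knockout and wild-type libraries did not overlap for 3 members (Rgn, Tbx3 and Axin2), where 40.7% of all genes tested did not.

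**Figure D1:**
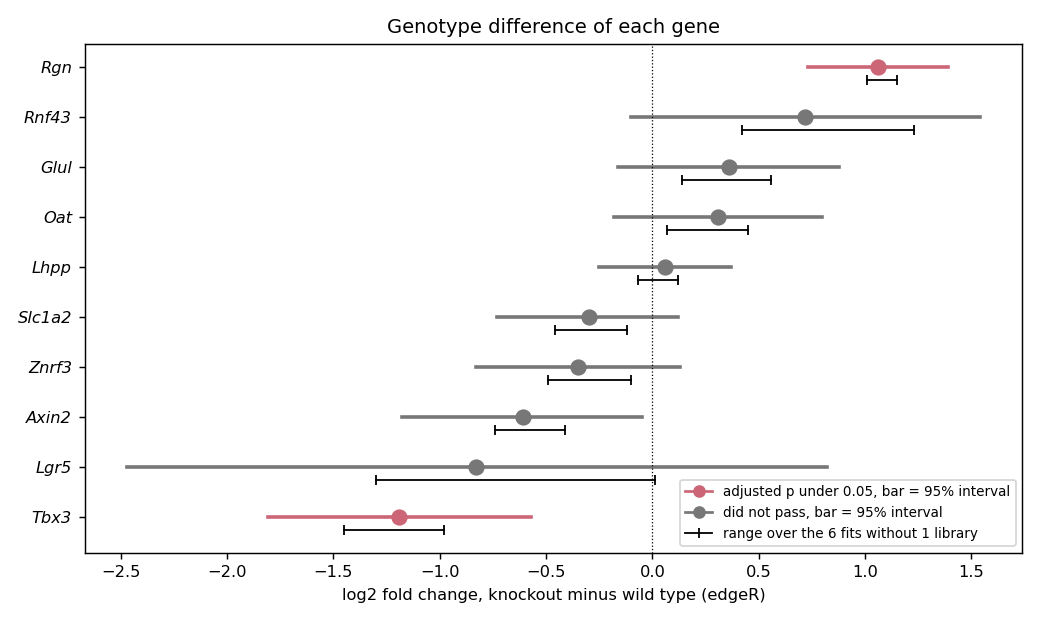
Log2 fold change of each gene, knockout minus wild type, from edgeR (x axis, log2 units; 1 gene per row). Points are estimates, thick bars 95% intervals before adjustment, and thin black bars the range over the 6 fits that each leave out 1 library. Rgn at 1.06 and Tbx3 at -1.19 (red) passed the adjusted threshold, and the interval of Lgr5, from -2.47 to 0.82, is the widest.

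Among the amino acid genes, none of Glul, Oat and Slc1a2 passed. In GRCm38 they span chr1:153899944-153909723 on the plus strand, chr7:132557478-132576398 on the minus strand and chr2:102658659-102790784 on the plus strand. Glul, which makes glutamine from glutamate and ammonia in the hepatocytes next to the central vein, was at 566, 1040 and 858 CPM in WT 1, WT 2 and WT 3 and at 1101, 920 and 1137 CPM in KO 1, KO 2 and KO 3. WT 1 was the low library, and WT 2 lay within the knockout range. Between the genotypes Glul had a log2 fold change of 0.36 ± 0.23 (SE), with a 95% interval from -0.16 to 0.88 and adjusted p = 0.298 (edgeR). A rise of Glul by up to 0.88 on the log2 scale is therefore within the interval. The value was 0.14 without WT 1 and 0.56 without WT 2.

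Oat, the mitochondrial ornithine aminotransferase, stood at 587, 514 and 683 CPM in wild-type livers and 654, 590 and 968 CPM in knockout livers. KO 3 alone was above all wild-type libraries, and without it the log2 fold change of Oat went from 0.31 ± 0.21 (SE; adjusted p = 0.339, edgeR) to 0.07. Without KO 2 that of Oat was 0.45. Slc1a2, a glutamate importer of the plasma membrane, was measured at 126, 125 and 137 CPM in wild type and 112, 76.1 and 127 CPM in knockout. Here KO 2 was the low library and KO 3 lay within the wild-type range. For Slc1a2 the log2 fold change was -0.30 ± 0.19 (SE; adjusted p = 0.279, edgeR), -0.12 without KO 2 and -0.46 without KO 3. Wild-type libraries of Slc1a2 differed by no more than 1.10-fold from highest to lowest, against 1.67-fold among the knockout libraries.

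**Figure D2:**
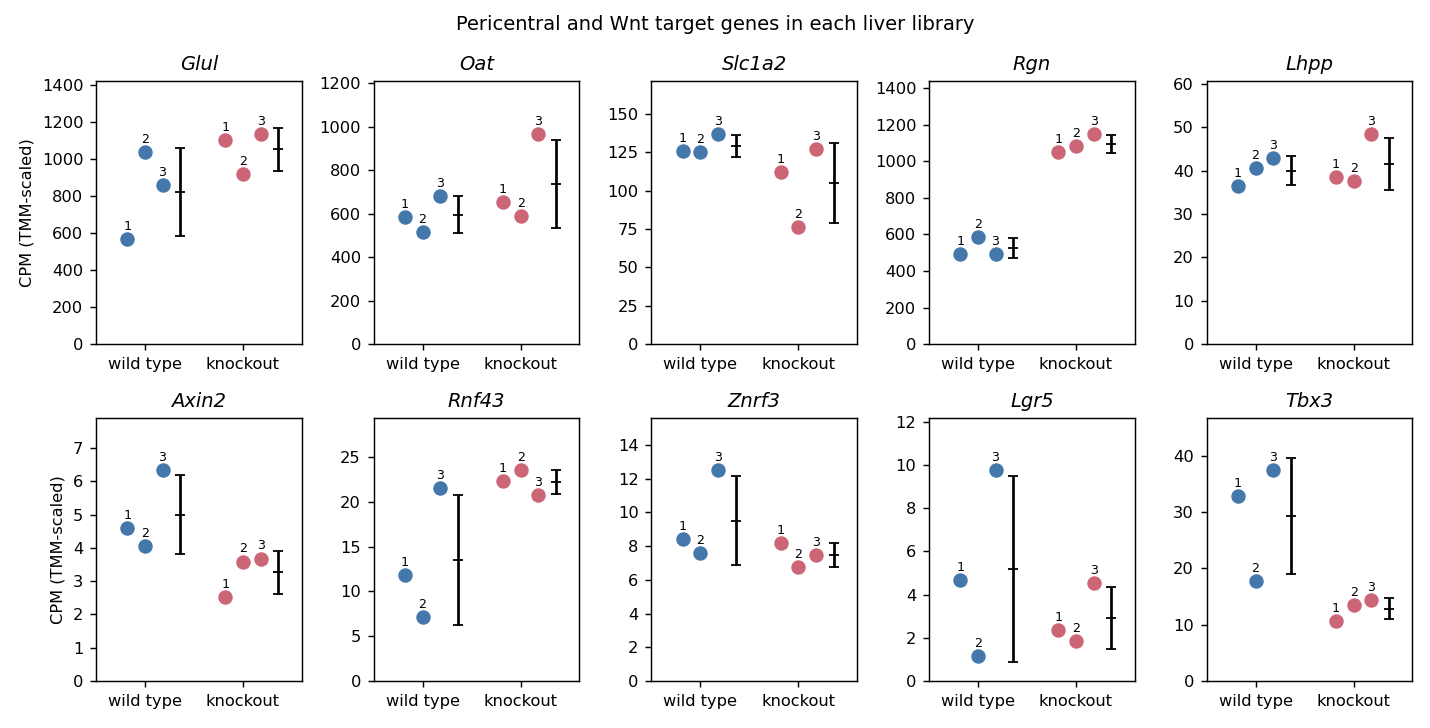
Level of each gene in each library (y axis, CPM scaled by TMM, starting at 0; 1 panel per gene). Dots are libraries, numbered by replicate, and black bars are the mean and SD of 3 libraries per group. The knockout dots of Rgn (1052 to 1150 CPM) lie above its wild-type dots (493 to 588 CPM), those of Tbx3 and Axin2 lie below theirs, and the groups overlap for the other 7 genes.

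Rgn had the most uniform difference. Its level was 493, 588 and 494 CPM in wild-type livers against 1052, 1082 and 1150 CPM in knockout livers, so the lowest knockout library was above the highest wild-type library by far more than the spread within either group. This gave a log2 fold change of 1.06 ± 0.14 (SE), with adjusted p = 0.00453 (edgeR). It stayed between 1.01 and 1.15 when any 1 library was left out, with adjusted p up to 0.0312. Rgn lies on the X chromosome, from 20549787 to 20562089 on the plus strand of GRCm38. Lhpp, a phosphatase of phosphohistidine and phospholysine, was at 36.4, 40.5 and 43.0 CPM in wild type and 38.5, 37.7 and 48.5 CPM in knockout. Its groups overlapped, and the difference of 0.06 ± 0.13 on the log2 scale (SE; adjusted p = 0.798, edgeR) had the narrowest interval of the 10, from -0.25 to 0.37. The sign of the Lhpp value turned without WT 1 (-0.01) or KO 3 (-0.07) and with library totals in place of TMM (-0.02). Lhpp and Oat are neighbours on chromosome 7, with their starts 34240 bases apart on opposite strands, and KO 3 was the highest of the 6 libraries for both. The annotated span of Fgfr2, at 522 to 1002 raw counts per library, overlaps both genes.

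None of the Wnt feedback genes passed, and their values did not share a sign. In GRCm38 Axin2 spans chr11:108920349-108950783 and Rnf43 chr11:87662722-87735539 on the plus strand, while Znrf3 (chr11:5276324-5444847) and Lgr5 (chr10:115450311-115587780) lie on the minus strand. Axin2, a scaffold of the beta-catenin destruction complex and a widely used Wnt readout, was at 4.60, 4.07 and 6.33 CPM in wild-type and 2.52, 3.59 and 3.68 CPM in knockout livers. These are low levels, from 99 to 228 counts per library. All 3 knockout libraries were below all 3 wild-type libraries, and the log2 fold change was -0.61 ± 0.25 (SE), with a 95% interval from -1.18 to -0.05. The unadjusted p of 0.0366 became an adjusted p = 0.113 in edgeR. Over all alternatives tried for the log2 fold change of Axin2, its adjusted p ran from 0.0742 (without WT 2) to 0.880 (against a 1.5-fold minimum).

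Rnf43 and Znrf3 are paralogous membrane ubiquitin ligases that remove Wnt receptors from the cell surface. Rnf43 was at 11.8, 7.17 and 21.5 CPM in wild type and 22.3, 23.5 and 20.8 CPM in knockout. The knockout libraries lay close together, within 1.13-fold, and WT 3 alone reached them, while the wild-type libraries differed by 2.99-fold. Rnf43 had a log2 fold change of 0.72 ± 0.35 (SE; adjusted p = 0.184, edgeR). Without WT 3 it was 1.23 and passed (adjusted p = 0.0151), and without WT 2 it was 0.42. Znrf3 was at 8.43, 7.58 and 12.5 CPM in wild type and 8.19, 6.78 and 7.47 CPM in knockout. WT 2 lay within the knockout range, WT 1 slightly above it and WT 3 well above it. For Znrf3 the difference came to -0.35 ± 0.21 on the log2 scale (SE; adjusted p = 0.273, edgeR), -0.10 without WT 3 and -0.49 without WT 2.

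Lgr5, a receptor for R-spondins that shields Wnt receptors from these ligases, was the least even of the 10 genes. It had 169, 45 and 351 counts in WT 1, WT 2 and WT 3 and 92, 74 and 216 counts in the knockout libraries. In CPM these were 4.66, 1.15 and 9.75 against 2.34, 1.84 and 4.54. The wild-type libraries spanned 8.45-fold and enclosed all 3 knockout libraries. The log2 fold change of -0.83 ± 0.70 (SE; adjusted p = 0.439, edgeR) rested on WT 3 and was 0.01 without that library and -1.30 without WT 2 or without KO 3. The interval of Lgr5, from -2.47 to 0.82, includes both no difference and a fall of more than 2-fold.

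The promoters of Axin2 and Rnf43 are shown because these 2 feedback genes had opposite signs, and that of Slc1a2 because it holds a Tcf/Lef-type match. RefSeq (GRCm38.p6) gave a promoter, 250 bases before to 50 after the start, for 5 of the 10 members. Searched on both strands were the words CTTTGAA or else CTTTGAT, with also CTTTGTA or else CTTTGTT, the core recognised by Tcf/Lef factors. Of 32851 promoters of this length in the table, 16.9% held a match, as did 1 of the 6 promoters of these members, that of Slc1a2. Capitals mark the match, which is ATCAAAG at 207 bases before the start. No match in the others says only that these letters are not in this window. The Axin2 window (chr11:108920099-108920398, plus strand) is 70.0% G and C, the first Rnf43 window (chr11:87662837-87663136, plus strand) 46.7% and the Slc1a2 window (chr2:102706188-102706487, plus strand) 45.7%, against a median of 52.7% over all promoters. The Slc1a2 window lies at a RefSeq start inside the gene span that GENCODE gives, which begins at 102658659. The first Rnf43 window also lies inside its GENCODE span, which begins at 87662722. The sequences run 5′ to 3′.
Axin2: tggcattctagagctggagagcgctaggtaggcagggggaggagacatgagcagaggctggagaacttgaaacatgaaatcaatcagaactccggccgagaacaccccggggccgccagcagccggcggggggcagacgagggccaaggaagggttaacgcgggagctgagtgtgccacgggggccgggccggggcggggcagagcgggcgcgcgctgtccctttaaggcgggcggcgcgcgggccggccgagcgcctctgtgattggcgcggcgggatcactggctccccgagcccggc
Rnf43: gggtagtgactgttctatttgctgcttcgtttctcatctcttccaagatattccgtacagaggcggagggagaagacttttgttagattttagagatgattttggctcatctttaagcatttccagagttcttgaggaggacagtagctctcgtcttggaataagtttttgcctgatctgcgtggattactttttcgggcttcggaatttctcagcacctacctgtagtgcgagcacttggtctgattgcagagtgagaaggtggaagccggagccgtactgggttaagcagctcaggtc
Slc1a2: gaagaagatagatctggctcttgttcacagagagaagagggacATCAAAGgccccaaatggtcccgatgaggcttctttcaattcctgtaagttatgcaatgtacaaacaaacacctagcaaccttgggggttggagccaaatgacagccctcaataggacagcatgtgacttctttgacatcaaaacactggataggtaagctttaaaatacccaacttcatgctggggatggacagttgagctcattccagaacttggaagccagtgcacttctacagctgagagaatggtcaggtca

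Tbx3, a transcription factor that beta-catenin induces in hepatocytes, was the member that fell. It spans chr5:119670669-119684724 on the plus strand of GRCm38. Tbx3 was at 32.9, 17.7 and 37.4 CPM in wild-type livers and 10.7, 13.5 and 14.3 CPM in knockout livers. All knockout libraries were below all wild-type libraries, although WT 2 was much nearer to the knockout group than WT 1 and WT 3 were. The difference was -1.19 ± 0.27 (SE) on the log2 scale, with adjusted p = 0.0225 (edgeR). The log2 fold change of Tbx3 was negative in all 16 alternative fits, at -1.45 without WT 2 and -0.98 without WT 3. Tbx3 no longer passed when WT 1 was left out (adjusted p = 0.0631), nor when any knockout library was, with adjusted p of 0.0914 for KO 1, 0.0670 for KO 2 and 0.0569 for KO 3. The antisense gene Tbx3os1 overlaps Tbx3, with 35, 13 and 101 counts in wild type and 59, 72 and 51 in knockout. Overlap here means that annotated gene spans overlap, and whether exons are shared was not checked. The labels do not say that strand was kept, so reads from any sequence common to both genes could be counted for either.

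The wild-type libraries had the same order for 7 of the members. Lgr5, Axin2, Tbx3, Rnf43, Znrf3 and the more abundant Oat and Slc1a2 were each lowest in WT 2 and highest in WT 3. Glul and Rgn had WT 2 as their highest wild-type library. Among the knockout libraries KO 3 was highest for 8 members, all but Rnf43 and Znrf3. The order of libraries within a genotype was noticed in these values and was not tested. WT 2 is also the library that stood apart over all genes.

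**Figure D3:**
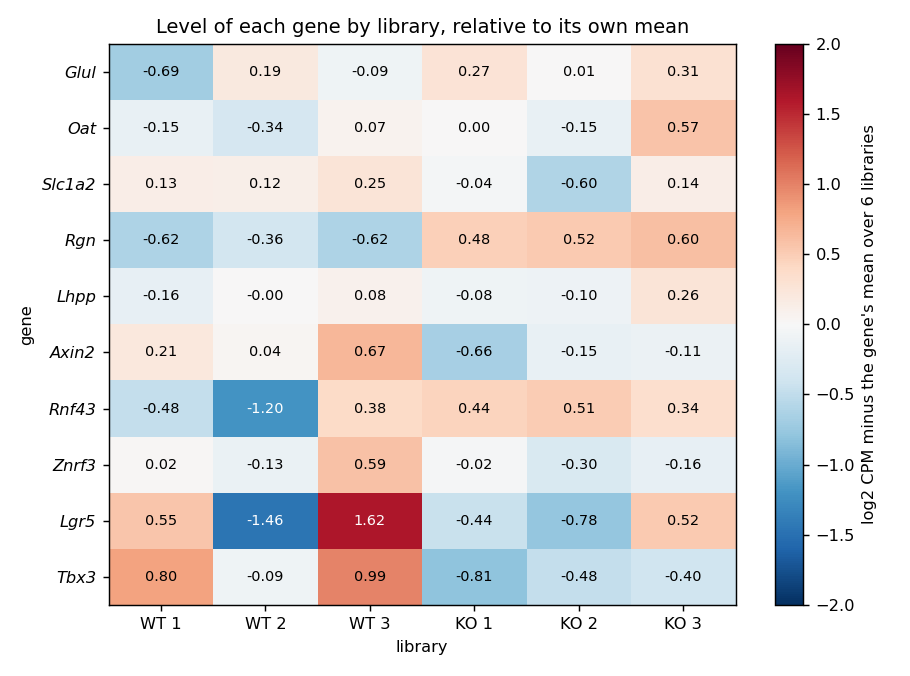
Log2 CPM of each gene in each library minus the gene's own mean over the 6 libraries (color scale and printed values, log2 units). Red is above and blue below the mean. Lgr5 ranges from -1.46 in WT 2 to 1.62 in WT 3, while Rgn is at -0.62 to -0.36 in the wild-type and 0.48 to 0.60 in the knockout libraries.

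To compare levels between genes, CPM was divided by the length of all annotated exons of a gene in kilobases. On this scale of level per length, Rgn was highest in both groups (327 ± 34.2 in wild type and 681 ± 31.4 in knockout, SD, n = 3). Oat (252 ± 35.9) and Glul (247 ± 72.0) followed in wild type and did not differ beyond their spread. Lhpp (16.5 ± 1.37), Slc1a2 (9.86 ± 0.527), Tbx3 (4.42 ± 1.56) and Rnf43 (2.05 ± 1.11) came next. Znrf3 (1.21 ± 0.335), Axin2 (0.908 ± 0.214) and Lgr5 (0.505 ± 0.421) were lowest, with neighbours within the spread of the wild-type libraries. In knockout livers Rnf43 (3.39 ± 0.204) ranked above Tbx3 (1.94 ± 0.280), the reverse of wild type. Glul (317 ± 35) and Oat (312 ± 85.8) again did not differ beyond their spread.

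The upstream pathway was measured with gene lists for its ligands, receptors, inhibitors and intracellular parts. Of 9 tested ligand and secretion genes, 0 rose and 1 fell, against 9.80% and 10.6% of all genes, so the falls were near the background. The gene that fell was Wnt5a, which mostly signals without beta-catenin. Its levels were 3.61, 2.49 and 2.47 CPM in wild type and 1.20, 1.57 and 1.72 CPM in knockout (log2 fold change -0.93 ± 0.27 (SE), adjusted p = 0.0460, edgeR). Leaving out WT 1, WT 3 or any knockout library ended the Wnt5a call (adjusted p up to 0.182). So did RLE scaling and testing unfiltered genes, which moved the log2 fold change of Wnt5a to adjusted p = 0.0512 and 0.0504. The other 16 genes of the list were too low to test. Of the 9 log2 fold changes 8 were negative, against 7329 of all 14069, with a median of -0.30 against -0.02. At an unadjusted p under 0.05, 0 ligand genes were higher and 2 lower, Wnt5a and Wnt9a (log2 fold change -1.14 ± 0.43 (SE), adjusted p = 0.0978, edgeR), while DESeq2 and limma voom each called 0 higher and 1 lower. The share of all genes at that unadjusted threshold was not counted, so the unadjusted counts have no background here. Without WT 2 the list had 2 lower, where 1690 of all 14475 genes tested were lower. The pericentral endothelial signals did not pass. Wnt2 was at 1.85, 1.41 and 1.83 CPM against 0.967, 0.897 and 1.70 CPM (adjusted p = 0.310, edgeR). Wnt9b was at 1.21, 0.974 and 0.666 CPM against 0.865, 0.598 and 1.09 CPM (adjusted p = 0.799, edgeR). Rspo3 was at 7.91, 11.1 and 7.08 CPM against 10.5, 9.72 and 13.0 CPM (adjusted p = 0.258, edgeR). Of the 20 endothelial markers, which include these 3 genes, 2 were called higher (Selp and Cdh13) and 2 lower (Stab1 and Gpr182), and they summed to 249 to 329 CPM in wild type and 238 to 398 CPM in knockout.

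Of 11 tested receptor genes 1 rose and 0 fell, against 9.80% and 10.6% of all genes, so the rises were near the background. The gene that rose was the Frizzled gene Fzd8, at 5.54, 4.51 and 7.61 CPM in wild type and 13.3, 15.0 and 13.2 CPM in knockout, with no overlap (log2 fold change 1.23 ± 0.20 (SE), adjusted p = 0.00802, edgeR). The call of Fzd8 held without each single library (adjusted p up to 0.0344). The co-receptor Lrp5 had a log2 fold change of -0.36 and did not pass (adjusted p = 0.0537), nor did Fzd5 (0.67, adjusted p = 0.0694). Lrp5 passed with upper-quartile scaling or library totals, which made the list 1 higher and 1 lower, and Fzd5 passed with DESeq2, without the filter, with the replicate number as a block or without WT 3. At an unadjusted p under 0.05, 2 receptor genes were higher and 1 lower. Lgr4, the main R-spondin receptor of hepatocytes, was at 37.8 to 60.0 CPM in wild type and 33.4 to 52.5 CPM in knockout (adjusted p = 0.492). Of 9 tested genes for inhibitors of the pathway 0 rose and 0 fell in edgeR, against 9.80% and 10.6% of all genes. At an unadjusted p under 0.05, 2 were higher and 2 lower, DESeq2 called 1 in each direction, limma voom 0, and upper-quartile scaling 1 lower. The share of all genes at that unadjusted threshold was not counted, so the unadjusted counts of receptors and inhibitors have no background here.

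Among 29 tested genes of the destruction complex and the nuclear machinery, 5 rose and 4 fell, against 9.80% and 10.6% of all genes. Bcl9l, a beta-catenin co-activator, fell from 40.2, 24.2 and 39.2 CPM to 9.26, 11.1 and 13.1 CPM (log2 fold change -1.63 ± 0.22 (SE), adjusted p = 0.00477, edgeR). The Groucho-type co-repressors Tle1 (0.93 ± 0.15), Tle3 (1.27 ± 0.25) and Tle4 (0.65 ± 0.13) rose on the log2 scale. The calls of Tle3 (adjusted p = 0.0646) and Tle4 (adjusted p = 0.0836) were lost without KO 1, while those of Bcl9l and Tle1 held without each library. With any 1 library left out, the log2 fold change stayed between 1.01 and 1.54 for Tle3 and between 0.59 and 0.69 for Tle4. Without KO 1, 603 genes were called over the whole table, against 2871 in the main fit. The kinases Gsk3b (0.50) and Csnk1e (0.62) also rose, and Tcf7l2 (-0.54), the main Tcf factor of hepatocytes, and the acetyltransferases Crebbp (-0.35) and Ep300 (-0.53) fell. Each of these 5 calls was lost without 5 or more of the 6 libraries taken in turn (adjusted p up to 0.181). The log2 fold change of Crebbp also missed the threshold with DESeq2, with RLE scaling and without the filter on low counts (highest adjusted p = 0.0909), and the log2 fold change of Gsk3b with library totals (adjusted p = 0.0610). With library totals 4 genes of the list rose and 5 fell. Without any 1 library other than WT 2, 1 to 3 genes of the list rose and 1 to 2 fell. Over all genes, these fits called 385 to 1057 higher and 218 to 973 lower, against 1379 and 1492 in the main fit. Beta-catenin itself, Ctnnb1, was at 217 to 229 CPM in wild type and 160 to 182 CPM in knockout, with no overlap, and did not pass (log2 fold change -0.37 ± 0.12 (SE), adjusted p = 0.0563, edgeR). The log2 fold change of Ctnnb1 passed with 5 alternatives: DESeq2 (adjusted p = 0.0305), upper-quartile scaling, library totals, limma voom and the stricter filter.

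Wnt target genes known from several tissues gave 5 rises and 0 falls among 15 tested, against 9.80% and 10.6% of all genes. These were the growth regulator Myc (log2 fold change 2.28 ± 0.13), the AP-1 subunit Jun (3.15 ± 0.39), the nuclear receptor Ppard (1.09 ± 0.19), the receptor Tnfrsf19 (1.71 ± 0.33) and the secreted factor Lect2 (0.72 ± 0.15). Myc and Jun are also immediate-early genes. This list shares 4 genes with the other pericentral genes described next: Lect2, Tnfrsf19, Nkd1 and Sp5, so the rises of Lect2 and Tnfrsf19 are counted in both. Tnfrsf19 did not pass without KO 1 (adjusted p = 0.0504). The log2 fold change of Lect2 missed the threshold when WT 1 or KO 1 was left out (highest adjusted p = 0.0592), and the count was 3 without KO 1. Over all genes, 385 rose without KO 1, against 1379 in the main fit. Of these 4, Nkd1 and Sp5 did not pass, nor did Notum, all 3 named after their values were seen: the Wnt-inactivating enzyme Notum (0.18 ± 0.25), the antagonist Nkd1 (-0.32 ± 0.28) and the transcription factor Sp5 (-0.02 ± 0.36). Their signs changed when 1 library was left out for Notum (-0.03 to 0.43) and Sp5 (-0.28 to 0.35) but not for Nkd1.

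The wider set of pericentral genes, also chosen with earlier results of these data known, was then set beside the members. Of 45 other pericentral genes, all tested, 22 rose and 4 fell, against 9.80% and 10.6% of all genes, with a median log2 fold change of 0.58 against -0.12 for the 10 members and -0.02 for all genes. Ahr, the aryl hydrocarbon receptor, rose from 50.7, 53.9 and 59.0 CPM to 133, 122 and 113 CPM (log2 fold change 1.17 ± 0.12 (SE), adjusted p = 0.00209, edgeR). The paraoxonase Pon1 (0.88 ± 0.13), the glutathione transferase Gsta3 (1.14 ± 0.18) and Cyp2c37 (1.44 ± 0.21) rose as well. Their calls held without each library, with the limit that close Cyp2c and Gsta paralogs can share reads. Cyp2e1, a pericentral cytochrome P450, rose from 1580, 1850 and 2265 CPM to 3636, 3687 and 3788 CPM (0.96 ± 0.17, adjusted p = 0.0107, edgeR) and did not pass without KO 1 (adjusted p = 0.0571). Cyp1a2, also a pericentral cytochrome P450, was at 483, 383 and 380 CPM against 560, 636 and 430 CPM. Its groups overlapped, and it did not pass (0.38 ± 0.18, adjusted p = 0.174, edgeR). The 4 that fell were the aromatic amino acid transporter Slc16a10 (-0.87 ± 0.15), Cyp3a11 (-0.88 ± 0.25), the heme synthesis enzyme Alas1 (-0.61 ± 0.18) and the tubulin Tuba8 (-1.36 ± 0.36). The falls of Cyp3a11, Alas1 and Tuba8 were lost without 4 or 5 of the libraries taken in turn (adjusted p up to 0.143), and that of Alas1 with RLE size factors or limma voom. The list gave 13 rises and 1 fall without WT 1, 5 and 1 without KO 1, 2 falls without KO 2 and 2 without KO 3. Over all genes, 930 of 14367 rose and 723 fell without WT 1, and 385 of 14374 rose and 218 fell without KO 1. Falls over all genes were 684 of 14367 without KO 2 and 863 of 14294 without KO 3. The main fit had 1379 rises and 1492 falls among 14069. The mitochondrial share and the marker sums given above differed between the same libraries, and their part in the rises of the other pericentral genes was not tested.

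**Figure D4:**
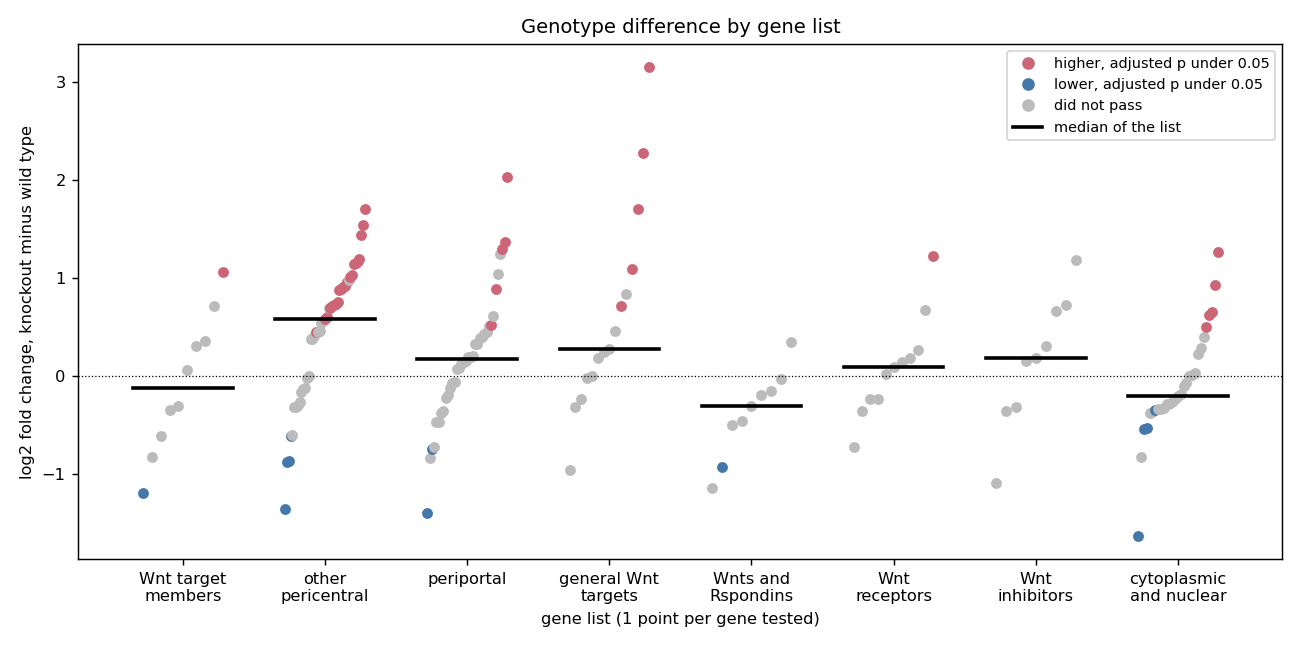
Log2 fold change of each tested gene, knockout minus wild type (y axis, log2 units), by gene list (x axis), with the list's median as a black line. Red and blue points passed the adjusted threshold upward and downward. The other pericentral genes have a median of 0.58, and the 10 members one of -0.12.

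Periportal genes, which mark the opposite end of the lobule, gave 5 rises and 2 falls among 36 tested, against 9.80% and 10.6% of all genes, with a median log2 fold change of 0.17. Etnppl, a phospho-lyase of phosphoethanolamine, rose from 46.2, 42.9 and 36.4 CPM to 104, 103 and 103 CPM (log2 fold change 1.30 ± 0.12 (SE), adjusted p = 0.00151, edgeR), a call that held without each library. Acly (1.37), G6pc (2.03), Agxt (0.89) and Pigr (0.52) also rose, while Sdsl (-1.40) and the gluconeogenic enzyme Pck1 (-0.74) fell. Acly did not pass without KO 1 (adjusted p = 0.0627), and G6pc, Agxt, Pigr, Sdsl and Pck1 did not without 3 to 5 of the libraries taken in turn (adjusted p up to 0.187). The periportal counts depended on scaling, with 3 rises and 5 falls for library totals alone and 2 and 2 for upper-quartile scaling. They were 1 rise and 0 falls without KO 1, 3 and 0 without KO 2 or KO 3, and 3 rises without WT 2 or WT 3. Over all genes there were 385 rises and 218 falls without KO 1, 910 and 684 without KO 2, and 881 and 863 without KO 3. Rises over all genes were 1390 without WT 2 and 1057 without WT 3, against 1379 in the main fit.

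Genes that handle the same metabolites as Glul, Oat and Slc1a2 gave 6 rises among 26 tested, against 9.80% of all genes, with a median log2 fold change of 0.18. Proline dehydrogenase Prodh rose from 95.5, 77.6 and 95.7 CPM to 137, 135 and 135 CPM (0.60 ± 0.12 (SE), adjusted p = 0.0159, edgeR), and the ammonium transporter Rhbg rose from 6.70, 6.25 and 6.86 CPM to 11, 10.2 and 16.2 CPM (0.92 ± 0.20, adjusted p = 0.0178). Both are also on the list of other pericentral genes. Otc (0.67), a urea cycle enzyme that consumes ornithine, and Aldh4a1 (0.64), the step after Prodh, rose as well. Prodh was lost without KO 1 (adjusted p = 0.0771), and Rhbg when WT 1 or KO 1 was left out (highest adjusted p = 0.0519). Otc and Aldh4a1 were lost without 3 or 4 of the libraries taken in turn (adjusted p up to 0.112). The list gave 0 rises without KO 1, and 3 rises without WT 1, WT 3, KO 2 or KO 3. Over all genes, rises were 385 without KO 1 and 881 to 1057 in those other fits, against 1379 in the main fit. With library totals or upper-quartile scaling the list had 4 rises. Periportal glutaminase Gls2, which breaks down the glutamine that Glul makes, was at 240, 186 and 173 CPM in wild type and 285, 286 and 239 CPM in knockout and did not pass (log2 fold change 0.43 ± 0.16 (SE), adjusted p = 0.0948, edgeR). With DESeq2 it passed.

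Likeness of pattern was described by Pearson correlation of log2 CPM over the 6 libraries among 10911 other genes with a mean log2 CPM of at least 1. Closest to Glul were Gm10925 (r = 0.996), Actr1b (r = 0.986) and Zcchc7 (r = 0.984). Closest to Axin2 were Rnf215 (r = 0.989), Tap1 (r = 0.987) and Mxra8 (r = 0.985). These 6 points are 3 libraries of each genotype, and so many genes are compared that high values arise for any pattern.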

How the data were processed

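Liver RNA was enriched for poly(A) and built into libraries with a NEBNext Ultra II RNA kit, per the labels' protocols. Per the submitters' processing notes the tools were Trim Galore, STAR and Salmon on GRCm38. Versions, order and annotation: not given in the sources used here. Expected counts per gene make up the deposited table, with 8.38% to 9.32% of values not whole, per the file headers and values. They were rounded, filtered with filterByExpr, scaled by TMM and tested on genotype alone by edgeR 4.0.16 (robust glmQLFit and glmQLFTest, two-sided, R 4.3.3), with Benjamini-Hochberg adjustment over 14069 genes and a threshold of 0.05. Standard errors are the log2 fold change over the square root of F. Symbols matched 45143 of 45706 identifiers, and positions and exon lengths are from GENCODE M21 (GRCm38).

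The members and gene lists were chosen with earlier results of these data known. Named are all members, up to 4 genes of lowest p per list (mean log2 CPM of at least 0), and all called genes of a list where 5 or fewer were called in a direction. Alb, Ctnnb1, Notum, Nkd1, Sp5, Wnt9a, Wnt9b, Xbp1, Sdc1, Cyp2e1, Cyp1a2, Lgr4, Gls2 and Aldh4a1 were added after their values were seen. On simulated counts of this comparison, the fit ran on 13660 genes and recovered 87.5% of 200 genes changed 3-fold, calling 13 of 13460 unchanged ones. The changed genes were drawn only above a floor of mean wild-type CPM. Every member differed by less than 3-fold, and recovery of smaller changes was not simulated. Library pairs within a group differed beyond counting noise (chi-square per gene of 34.5 or more), and each was kept as its own sample. The alternatives changed the scaling (RLE, upper quartile, library totals), the filter (none, stricter) or the test: DESeq2 1.42.0, limma voom 3.58.1, a 1.5-fold minimum, the replicate number as a block, mitochondrial and hemoglobin genes left out, and each library left out. Calls of lower genes in the glutamine, proline and nitrogen list are not reported here. Figures used matplotlib 3.10.9.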

Additional observations from a re-analysis of the deposited data

How the results depend on the processing

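Of 160 values for the 10 members under 16 alternatives, 153 kept their side of the threshold, 6 lost the call and 1 gained it. The 6 losses were all of Tbx3 and the gain was Rnf43 without WT 3. A sign differed for 4 values, of Lgr5 and Lhpp, none of them called. The number of members higher was 1 to 2 when 1 library was left out, and of members lower 0 to 1. Against a 1.5-fold minimum, Rgn still passed (adjusted p = 0.0498), members lower were 0, all genes called were 323, other pericentral genes 2 higher and 0 lower, and periportal genes 1 and 0. This test asks for a larger change by construction. The number of genes called across the table was 603 (without KO 1) to 3080 (without WT 2) when 1 library was left out. In these fits 5 to 22 other pericentral genes were higher and 1 to 3 lower. Periportal genes were 1 to 4 higher and 0 to 2 lower, with fewer samples in each fit.

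With the replicate block, genes called across the table were 1468, with 0 members lower (log2 fold change of Tbx3 at adjusted p = 0.0507), 1 other pericentral gene lower and 2 periportal genes higher. Same-numbered libraries showed no shared deviation from their group means, with correlations of -0.0762, 0.0126 and -0.0853. Of 6 libraries, 0 correlated best with their own number. The labels do not say whether the numbers pair animals, and these values cannot settle it. Periportal genes were 2 higher with upper-quartile scaling, 3 higher and 5 lower with library totals alone, 9 higher and 4 lower with DESeq2, and 1 lower with RLE size factors. The cause was not tested. Lgr5 (45 to 351) and Axin2 (99 to 228) had the fewest counts per library of the members, and what depth adds to their errors was not tested.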

Other observations

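The paralogs Rnf43 and Znrf3 were set against each other within each library, a ratio that does not depend on library scaling. Rnf43 CPM over Znrf3 CPM was 1.40, 0.946 and 1.71 in WT 1, WT 2 and WT 3 and 2.73, 3.47 and 2.79 in KO 1, KO 2 and KO 3. The knockout libraries were all above the wild-type libraries, although neither gene passed alone. Rgn over Glul, both abundant hepatocyte transcripts, was 0.870, 0.565 and 0.575 in wild type and 0.955, 1.18 and 1.01 in knockout, again without overlap. Tbx3 over Axin2 was 7.15, 4.33 and 5.90 in wild type and 4.26, 3.76 and 3.87 in knockout. The 3 ratios were chosen after the values were seen and carry no test.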
